A study of Mus musculus with 6 samples.

Results

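The annexin genes and their S100 partners were followed in I1DN cells, a mouse acute myeloid leukemia (AML), after treatment of the animals with AG636, an inhibitor of the pyrimidine synthesis enzyme DHODH. The members are 10 named genes of the 54838 in the count table: the annexins Anxa1, Anxa2, Anxa3, Anxa4, Anxa5, Anxa6, Anxa7 and Anxa11, and the S100 genes S100a10 and S100a11. The list was chosen by the difference between AG636 and vehicle in these samples, since Anxa1 was among the strongest increases. The values that compare the groups are therefore given for the members as a description, with no p-value. Where a member is said to have passed or missed the threshold of the fit over all genes, this describes the samples that chose the list and is no independent test.

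RNA was collected from 3 vehicle-treated and 3 AG636-treated mice, and each mouse gave 1 library. All 6 mice carried AML cells of C57BL/6 background that expressed IDH1R132H, DNMT3AR882H and NrasG12D. These constructs had been introduced together into fetal liver hematopoietic stem and progenitor cells, and banked leukemic cells were transplanted into sublethally irradiated congenic Ptprca recipients. AG636 was given at 100 mg/kg by oral gavage b.i.d., and the labels name the control only as vehicle. The legends of the study give differing durations of treatment for this experiment. Leukemic cells were sorted from bone marrow and spleen as a cKit+ CD11b- fraction, which the methods call cKit-high CD11b-low. Age and sex are not given in the sources used here, and the number of leukemia clones is not stated.

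The libraries held 4634963 to 7906589 counts, so that 3 counts corresponded to 0.392 to 0.637 CPM (counts scaled for library depth to the same total in every library), for counting error only. Vehicle replicate 1 and AG636 replicate 2 stood apart in marker content. The summed level of 10 myeloid progenitor markers was 2600, 4770 and 5200 CPM in vehicle replicates 1 to 3, and 5550, 2190 and 4530 CPM in AG636 replicates 1 to 3. The same libraries had the highest erythroid marker sums of their groups, 3530 and 2820 CPM, while the other 4 lay between 1410 and 2270 CPM. Kit, which encodes the sorted receptor, was present in every library at 31.8 to 46.3 CPM. Itgam, which encodes CD11b, was not absent from the sorted cells, at 12.1, 18.3 and 27.0 CPM with vehicle and 60.1, 31.3 and 41.2 CPM with AG636.

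Annexins are cytosolic proteins that bind acidic phospholipids when calcium rises, through a core of repeated domains. They help to organize membranes, vesicle fusion and the resealing of torn plasma membrane, and they differ mainly in the tail that precedes the core. S100 proteins are small calcium-binding dimers, some of which dock on such a tail: S100A10 on annexin A2, and S100A11 on annexin A1. In leukocytes annexin A1 is abundant in neutrophils and monocytes, is induced by glucocorticoids and, once released, acts on formyl peptide receptors.

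The genes lie on 7 chromosomes of mm10. Anxa1 is at chr19:20373428-20390944 on the minus strand, and Anxa2 is at chr9:69453620-69491795 on the plus strand. S100a11 (chr3:93520488-93526287) and S100a10 (chr3:93555080-93564643) are plus-strand neighbours with 28792 bases and 1 annotated gene, Gm29950, between them. Of the other 14 S100 genes examined here, 11 are on the same chromosome. Anxa5 is also on chromosome 3, at chr3:36448923-36475894. Coding length ranged from 960 bases for Anxa4 and Anxa5 to 2022 bases for Anxa6, whose core is duplicated, and was 294 and 297 bases for S100a10 and S100a11.

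The RefSeq table (GRCm38.p6) held promoters for 7 of the 10 genes. The 250 bases before the RefSeq start are shown for Anxa1, which differed most between the groups, and for Anxa2 and S100a11, a partner of each kind whose groups also did not overlap. The RefSeq starts differ from the ends of the gene spans given above. The Anxa1 window lies within its gene span, and the Anxa2 and S100a11 windows run into theirs. Capitals mark matches on either strand. The TATA box was searched as TATAAA. The GC box was searched as the letters GGGCGG. The AP-1 site was searched as TGANTCA, where N stands for any base. The E-box was searched by its palindrome, CACGTG.
Anxa1, chr19:20390672-20390921, minus strand: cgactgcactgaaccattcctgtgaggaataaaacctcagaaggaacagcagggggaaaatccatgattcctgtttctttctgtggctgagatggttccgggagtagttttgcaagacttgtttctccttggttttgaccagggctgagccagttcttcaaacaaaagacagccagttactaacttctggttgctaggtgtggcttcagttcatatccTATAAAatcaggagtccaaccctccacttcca
Anxa2, chr9:69453433-69453682, plus strand: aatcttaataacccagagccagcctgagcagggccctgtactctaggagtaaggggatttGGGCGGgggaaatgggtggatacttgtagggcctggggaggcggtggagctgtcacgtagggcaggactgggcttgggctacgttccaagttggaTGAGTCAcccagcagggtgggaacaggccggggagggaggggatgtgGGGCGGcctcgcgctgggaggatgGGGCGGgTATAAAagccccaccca
S100a11, chr3:93520246-93520495, plus strand: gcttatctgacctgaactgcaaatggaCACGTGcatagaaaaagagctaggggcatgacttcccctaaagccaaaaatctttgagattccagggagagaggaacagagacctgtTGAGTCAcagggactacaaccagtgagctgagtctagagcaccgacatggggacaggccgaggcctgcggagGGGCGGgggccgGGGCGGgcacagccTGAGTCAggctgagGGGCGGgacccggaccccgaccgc

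The Anxa1 window contained 1 TATA box, 32 bases before the start, and none of the other 7 motifs that were searched. These also included the CCAAT box. The PU.1 core site was searched as GAGGAAG. The single arm of the glucocorticoid receptor site was searched as AGAACA and that of the cAMP response element as TGACGT. None of these matched in the Anxa2 or S100a11 windows either. The Anxa2 window contained 3 GC boxes, 1 AP-1 site and a TATA box 17 bases before the start. The S100a11 window contained 3 GC boxes, 2 AP-1 sites and an E-box, and no TATA box. No match overlapped another in these windows. Among 32851 promoter windows of the same length, 12.4% held a TATA box, 32.7% a GC box, 6.75% an AP-1 site and 6.02% an E-box. The CCAAT box was in 33.8% of the windows, the PU.1 core in 10.6%, the glucocorticoid receptor letters in 16.1% and the single arm of the cAMP response element in 6.47%. Of the other member promoters, the window of a second Anxa4 start held 2 matches to the glucocorticoid receptor letters. GC content was 46.0% with 2 CpG in Anxa1, 62.4% with 9 CpG in Anxa2 and 60.0% with 11 CpG in S100a11, against medians of 52.4% and 6 CpG over all windows. The Anxa5 window held no match to any of the 8 motifs. These matches describe letters in a fixed window and were not tested against the expression values.

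Libraries were made from the 3′ ends of transcripts, so that counts do not scale with length and CPM of different genes were compared without division by length. In vehicle-treated mice the order of mean level was S100a11, Anxa2, S100a10, Anxa5, Anxa7, Anxa3, Anxa6, Anxa1 and Anxa4. The means ranged from 150 CPM for S100a11 to 11.5 CPM for Anxa4. Neighbours in this order overlapped in their vehicle ranges, except that Anxa6 lay above Anxa1 and Anxa1 lay above Anxa4 in all vehicle mice. In AG636-treated mice, S100a10 was above Anxa5, Anxa5 above Anxa7, and Anxa1 above Anxa4 in all mice. Anxa1 was also above Anxa6 in all of them, so that the order of this pair was turned, whereas the other neighbours overlapped. Anxa11 had 2 counts over the 6 libraries, both in vehicle replicate 2, and was removed by the filter on low counts. Whether the counting missed reads from its 3′ end was not tested, so this low count is not read as absence of the transcript. Anxa11, whose product tethers RNA granules to lysosomes, lies on the plus strand at chr14:25842156-25886804, and its exons overlap the opposite-strand gene Anxa11os, which had 3 counts.

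**Figure D1:**
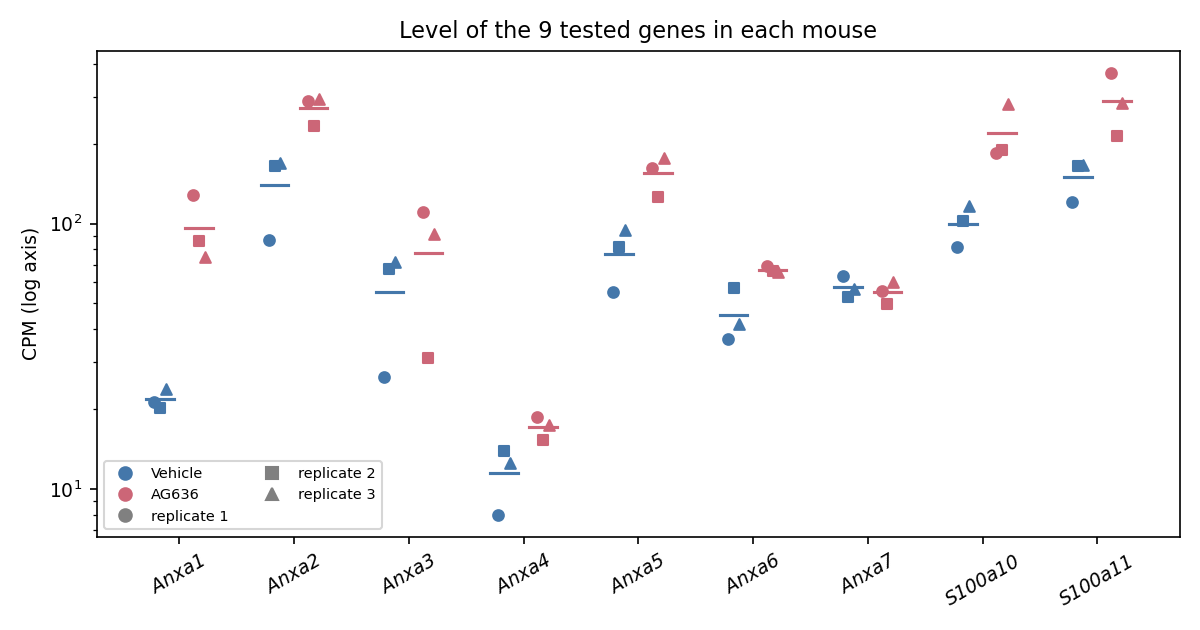
Level of the 9 genes that passed the filter, in CPM on a log axis, for each mouse, with horizontal lines for the group means and marker shapes for the replicate numbers. The AG636 values of Anxa1 (74.8 to 128 CPM) lie above those of vehicle (20.3 to 23.8 CPM), whereas those of Anxa3 and Anxa7 overlap with vehicle.

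Anxa1 had the largest difference of the family. Its level was 21.2, 20.3 and 23.8 CPM in vehicle replicates 1 to 3 and 128, 86.2 and 74.8 CPM in AG636 replicates 1 to 3. All AG636 mice were above all vehicle mice, and the spread was wider with AG636 (96.4 ± 28.2 CPM, mean ± SD, n = 3) than with vehicle (21.8 ± 1.84 CPM, n = 3). The log2 fold change was 2.15 (SE 0.21), a fold of 4.43, which ranked at 32 from the top of 11092 genes tested. Without AG636 replicate 1, the highest library, it was 1.89.

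Among the 9 members that could be tested, 6 passed an adjusted p of 0.05 upward and 0 downward (edgeR quasi-likelihood test with Benjamini-Hochberg adjustment). At an unadjusted p under 0.05, 0 were lower, and DESeq2 and limma-voom also called 6 higher and 0 lower. Of all genes tested, 10.3% were called higher and 11% lower. The groups did not overlap, with AG636 above, for 7 members, beside 20.5% of all genes. The median log2 fold change was 0.94 over the 9 members and 0.03 over all genes. These counts use the contrast that chose the list, so nothing was read from them.

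Anxa2 encodes the annexin that pairs with S100A10 at the plasma membrane. Its level was 87.0, 165 and 169 CPM with vehicle and 289, 233 and 295 CPM with AG636. The groups did not overlap, and vehicle replicate 1 was well below the other vehicle mice. The log2 fold change was 0.96 (SE 0.23), and the call was lost without AG636 replicate 1 (0.91) or AG636 replicate 3 (0.90).

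S100a10 encodes the S100 protein that no longer binds calcium and holds annexin A2 in a tetramer. It was at 81.7, 102 and 116 CPM with vehicle and at 185, 188 and 283 CPM with AG636. AG636 replicate 3 was the highest, and the groups were separate, with a log2 fold change of 1.13 (SE 0.19). Per count of Anxa2, S100a10 was 0.939, 0.619 and 0.689 with vehicle and 0.639, 0.810 and 0.960 with AG636. The ratio of these partners overlapped between the groups, while the level of each did not.

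S100a11 encodes the partner of annexin A1, which also binds annexin A2. Its level was 121, 164 and 166 CPM with vehicle and 369, 213 and 284 CPM with AG636, again without overlap. The log2 fold change was 0.94 (SE 0.20). Per count of Anxa1, S100a11 was 5.69, 8.09 and 6.96 with vehicle and 2.88, 2.47 and 3.80 with AG636. This ratio was lower in every AG636 mouse. Because the list was chosen by the increase of Anxa1, the lower ratio is no independent result. Per count of Anxa2, S100a11 was 1.39, 0.995 and 0.983 with vehicle and 1.28, 0.916 and 0.964 with AG636, and the groups overlapped. In the last 500 bases of its transcript, 42.1% of 50-base words also occurred in processed pseudogenes, of which Gm12854 held 1 count and the others 0. For the other 9 members this share was 0.

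**Figure D2:**
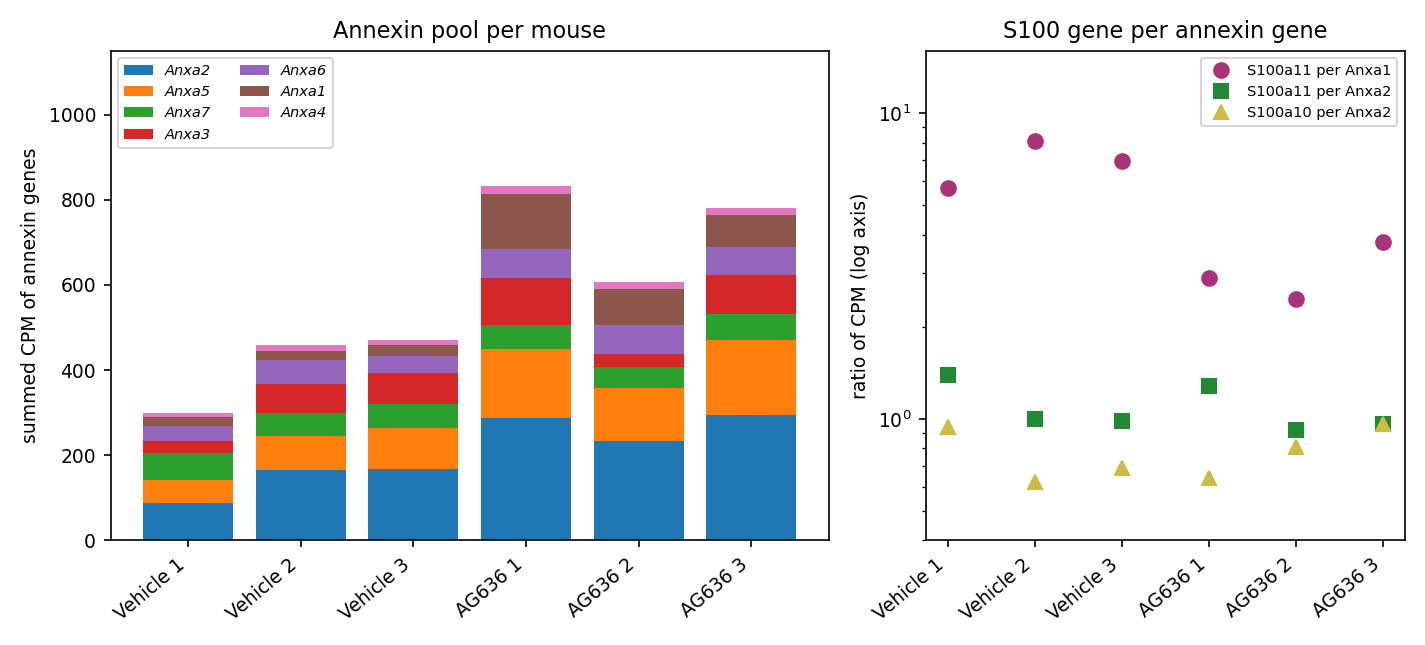
Left, summed CPM of the annexin genes in each mouse, stacked by gene. Right, ratio of S100 gene to annexin gene CPM in each mouse on a log axis. Summed annexin CPM are 298 to 470 with vehicle and 607 to 832 with AG636. Among the 3 ratios, only that of S100a11 to Anxa1 separates the groups, and the list was chosen by the increase of Anxa1.

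Anxa5 encodes annexin A5, which binds phosphatidylserine exposed on cell surfaces. It was at 55.3, 81.2 and 94.7 CPM with vehicle and at 161, 125 and 177 CPM with AG636. The groups did not overlap and the log2 fold change was 1.01 (SE 0.20). Summed over the annexin genes, the level was 298, 458 and 470 CPM with vehicle and 832, 607 and 781 CPM with AG636. Anxa1 made up 7.11%, 4.43% and 5.06% of this sum with vehicle and 15.4%, 14.2% and 9.57% with AG636. Because the list was chosen by the increase of Anxa1, its larger share is no independent result. Anxa2 was the largest contributor in all 6 mice, at 29.2% to 38.4%.

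Anxa6 (chr11:54979108-55033445, minus strand), the annexin with the duplicated core, was at 36.7, 57.3 and 42.0 CPM with vehicle. It was at 69.0, 66.2 and 65.5 CPM with AG636, a narrow range above all vehicle mice. The log2 fold change was 0.56 (SE 0.17). Anxa6 lost its call without vehicle replicate 1 (0.40), vehicle replicate 3 (0.48), AG636 replicate 1 (0.53), AG636 replicate 2 (0.56) or AG636 replicate 3 (0.57), each in turn. It also lost the call with the replicate number as a block (0.58).

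Anxa4 (chr6:86736840-86793584, minus strand), an annexin best known from secretory epithelia, was the lowest of the tested members. It was at 8.02, 13.9 and 12.5 CPM with vehicle and at 18.7, 15.3 and 17.4 CPM with AG636. The groups did not overlap, but the log2 fold change of 0.57 (SE 0.24) was not past the threshold. Its exons overlap the opposite-strand gene Gm44036, which had 6 counts in all against 465 for Anxa4.

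Anxa7 encodes annexin A7, first described as a factor of granule fusion, and lies on the minus strand at chr14:20455260-20480133. It was at 63.7, 52.7 and 56.8 CPM with vehicle and at 55.9, 49.7 and 60.0 CPM with AG636. The groups overlapped, with a log2 fold change of -0.06 (SE 0.14). The sign was not stable: the value was 0.03 when counts were scaled by library size alone and 0.01 without AG636 replicate 2. As a share of the summed annexin level, Anxa7 was 21.3%, 11.5% and 12.1% with vehicle and 6.71%, 8.19% and 7.69% with AG636. The sum was higher in every AG636 mouse and includes Anxa1, which chose the list. The lower share is therefore no separate decrease of Anxa7 and no independent result.

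**Figure D3:**
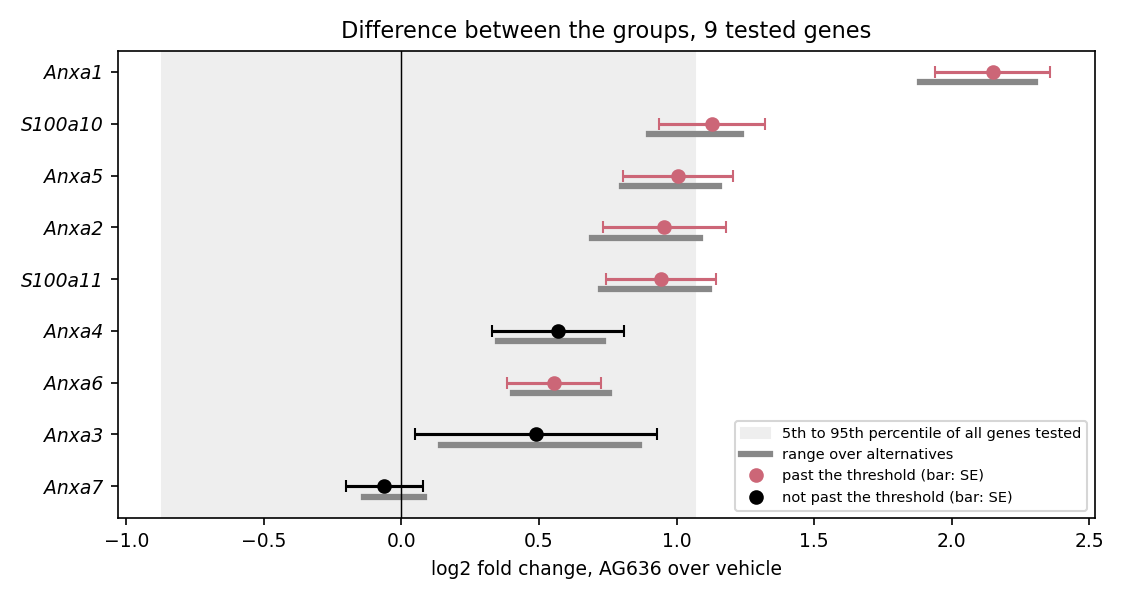
Log2 fold change of AG636 over vehicle for the 9 tested genes, with bars of SE, and grey bars for the range over the other processing settings. The shaded band spans the 5th to 95th percentile of all genes tested. Anxa1 (2.15) lies beyond the band, and Anxa7 (-0.06) lies beside 0.

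Anxa3, an annexin abundant in neutrophil lineage cells, lies on the plus strand at chr5:96793339-96845966. It was at 26.4, 67.6 and 71.9 CPM with vehicle and at 110, 31.1 and 91.6 CPM with AG636. The range within each group was wider than the difference of the group means, 55.3 and 77.6 CPM. The lowest mouse of each group was vehicle replicate 1 and AG636 replicate 2, the libraries with the lowest progenitor and the highest erythroid marker sums. In those libraries Mpo, the myeloperoxidase gene of granulocyte progenitors, was at 1252 and 618 CPM, and in the other 4 at 1704 to 2772 CPM. Mpo was named after its values were seen. Together with Elane, Prtn3 and Ctsg it made up most of the progenitor sum in every library. Not every progenitor marker went this way. Kit was highest of its group in vehicle replicate 1 (43.2 CPM) and lowest of its group in AG636 replicate 2 (37.3 CPM). The log2 fold change of Anxa3 was 0.49 (SE 0.44), not past the threshold. It was 0.14 without vehicle replicate 1 and 0.86 without AG636 replicate 2, not past the threshold in either case. Without both libraries it was 0.53 and past it. The part of marker content in these values was not tested.

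**Figure D4:**
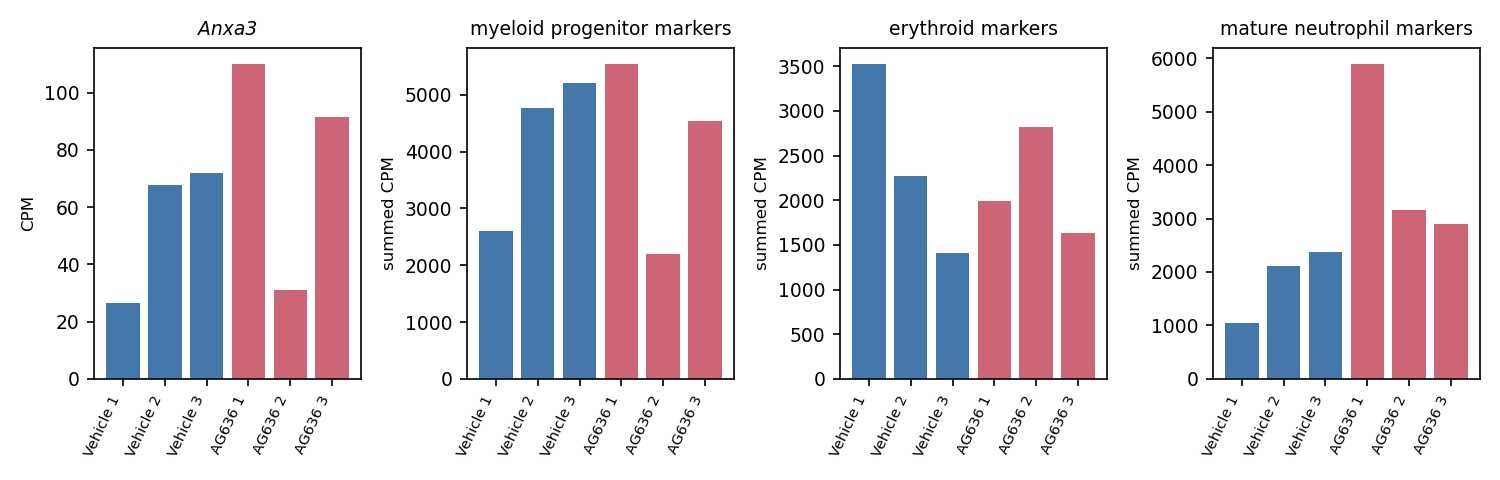
CPM of Anxa3 and summed CPM of the progenitor, erythroid and mature neutrophil markers in each mouse, vehicle in blue and AG636 in red. The libraries lowest in Anxa3 within their groups, vehicle replicate 1 (26.4 CPM) and AG636 replicate 2 (31.1 CPM), are also lowest in the progenitor sum.

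The marker sums of mature neutrophils and of monocytes and macrophages did not overlap between the treatment groups. The summed level of 10 mature neutrophil markers was 1040, 2120 and 2380 CPM with vehicle and 5900, 3150 and 2900 CPM with AG636. S100a8 and S100a9 made up most of this sum in every mouse. S100a8 was at 484 to 1339 CPM with vehicle and at 1328 to 3150 CPM with AG636. S100a9 was at 383 to 845 CPM with vehicle and at 1053 to 2158 CPM with AG636. Of the 10 markers, 7 were called higher, among them S100a9 and not S100a8, beside 10.3% of all genes. The 8 monocyte and macrophage markers summed to 175 to 287 CPM with vehicle and 338 to 859 CPM with AG636. Of the 7 tested, 3 were called higher, beside the same 10.3% of all genes. Lyz2, named after its values were seen, made up most of this sum in every library. Csf1r, Adgre1, Ccr2 and Cx3cr1, also named after their values were seen, overlapped between the groups and were not called. The part of these neutrophil and monocyte markers in the values of the annexin and S100 genes was not tested. In bulk RNA, more cells of a type and more RNA per cell cannot be told apart. Of the lymphocyte markers only Nkg7 passed the filter, and of the stromal and endothelial markers only Pecam1, with Cdh5 and Lepr at 0 counts. Mast cell and basophil markers summed to 467 to 730 CPM with vehicle and 732 to 1370 CPM with AG636. Cpa3, named after its values were seen, made up most of that sum in every library, and its groups overlapped. Megakaryocyte and platelet markers summed to 783 to 1210 CPM with vehicle and 1050 to 1710 CPM with AG636.

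Without vehicle replicate 1 and AG636 replicate 2, a comparison chosen after the data were seen, 6 members were again called higher. These included Anxa3 and not Anxa6. The log2 fold change of Anxa1 over all alternatives lay between 1.89 and 2.30, that of S100a10 between 0.90 and 1.24, and that of Anxa5 between 0.80 and 1.15.

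The remaining annexin genes of the list were mostly not measurable. Of Anxa8, Anxa9, Anxa10 and Anxa13, 2 had no count and 1 was removed by the filter. Anxa9 was tested and did not pass, at 17.4 ± 2.28 CPM with vehicle and 24.1 ± 3.87 CPM with AG636 (log2 fold change 0.48, SE 0.20). None was called lower either, and 1 had an unadjusted p under 0.05.

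The other S100 genes were described from a list of 14, of which 7 were tested, 2 had no count and 5 were removed by the filter. Of the 7 tested, 5 were called higher and 0 lower, beside 10.3% and 11% of all genes (edgeR quasi-likelihood test with Benjamini-Hochberg adjustment). Their median log2 fold change was 1.15 against 0.03 over all genes. DESeq2 called 4 higher and 0 lower. S100a5 and S100a9 were no longer among them, and a gene that edgeR did not call was. At an unadjusted p under 0.05 in the edgeR test, all 7 were higher and 0 lower. The share of all genes at this unadjusted level was not counted, so nothing is read from that count.

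S100a4, which encodes a regulator of cell motility that binds myosin, was at 59.4, 92.7 and 110 CPM with vehicle and at 291, 275 and 298 CPM with AG636. Its log2 fold change was 1.72 (SE 0.20, adjusted p = 0.00202), and the AG636 mice were tightly grouped far above vehicle. S100a1 rose from 33.0, 54.4 and 44.9 CPM to 118, 89.9 and 141 CPM (log2 fold change 1.39, SE 0.21, adjusted p = 0.00411). S100a6, whose product binds annexin A11 among others, rose from 165, 224 and 270 CPM to 378, 432 and 387 CPM (0.86, SE 0.17, adjusted p = 0.00906). The calls of S100a1, S100a4 and S100a6 were kept under every alternative setting tried at the same threshold.

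S100a8 and S100a9 encode the subunits of calprotectin, a neutrophil protein, and are also on the neutrophil marker list. S100a9 was at 383, 737 and 845 CPM with vehicle and at 2158, 1132 and 1053 CPM with AG636 (log2 fold change 1.15, SE 0.32, adjusted p = 0.0305). Its call was lost without vehicle replicate 1 (0.86), vehicle replicate 2 (1.23) or AG636 replicate 1 (0.74), with the replicate number as a block (1.12) and with DESeq2 (1.14). S100a8, named after its values were seen, was at 1.01 (SE 0.38, adjusted p = 0.0872) and not past the threshold. S100a5, also named after its values were seen, was at 1.25 to 1.96 CPM with vehicle and 3.40 to 4.25 CPM with AG636 (1.16, SE 0.36, adjusted p = 0.0467). S100a5 lost its call without any 1 of the 6 libraries, with log2 fold changes from 0.99 to 1.33, and also with DESeq2, with the replicate block and with no filter (1.14 to 1.17).

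The annexin binding partners and membrane repair genes were a list of 18, of which 13 were tested, 2 had no count and 3 were removed by the filter. Here 5 of the 13 were called higher and 0 lower, beside 10.3% and 11% of all genes. At an unadjusted p under 0.05, where no share of all genes was counted, 5 were higher and 0 lower. The median log2 fold change was 0.24 against 0.03 over all genes. DESeq2 also called 5 higher and limma-voom 4, and both called 0 lower. Pdcd6ip, which encodes the ESCRT adaptor ALIX, rose by 0.68 on the log2 scale (SE 0.15, adjusted p = 0.0136). Capns1 and Capn2 encode the small and a large subunit of calpain, a calcium-activated protease. They rose by 0.51 (SE 0.11, adjusted p = 0.0141) and 0.86 (SE 0.21, adjusted p = 0.0186).

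Ahnak encodes a giant scaffold that binds the complex of annexin A2 and S100A10. It was at 7.13, 7.33 and 10.2 CPM with vehicle and at 9.35, 23.1 and 22.3 CPM with AG636 (log2 fold change 1.16, SE 0.34, adjusted p = 0.036). AG636 replicate 1 was within the vehicle range, so the groups overlapped. Esyt1, a membrane tether named after its values were seen, rose by 0.47 (SE 0.14, adjusted p = 0.0425). Without AG636 replicate 3, 0 of these genes were called, at log2 fold changes of 0.99 for Ahnak, 0.78 for Capn2, 0.51 for Capns1, 0.64 for Pdcd6ip and 0.39 for Esyt1. Ahnak also lost its call without vehicle replicate 1 (1.06), vehicle replicate 2 (1.07) or AG636 replicate 2 (0.96) and with limma-voom (1.09), and Capns1 without vehicle replicate 1 (0.43) or AG636 replicate 1 (0.48). Pdcd6ip lost it without vehicle replicate 2 (0.57), and Esyt1 without vehicle replicate 1 (0.41), vehicle replicate 2 (0.37) or AG636 replicate 1 (0.48).

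The surface complex of annexin A2 and S100A10 is known to bind plasminogen. Of 9 plasminogen system genes, 4 were tested, 2 had no count and 3 were removed by the filter. Of the 4, 1 was called higher, beside 10.3% of all genes. This was Plgrkt, a plasminogen receptor gene, at 52.2, 47.0 and 69.2 CPM with vehicle and 82.0, 90.9 and 102 CPM with AG636 (log2 fold change 0.71, SE 0.17, adjusted p = 0.017). The call was lost without vehicle replicate 2 (0.59) or AG636 replicate 3 (0.63). The median of the 4 was 0.16. None was called lower, and 0 were lower at an unadjusted p under 0.05 and by DESeq2 and limma-voom.

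Formyl peptide receptors and annexin A1 signalling genes, a list of 7, were mostly near the floor. Of these, 3 had no count and 2 were removed by the filter. The edgeR test called 0 of the 2 tested genes, as did DESeq2 and limma-voom, while 1 had an unadjusted p under 0.05, and their median log2 fold change was 0.81. Fpr2, which encodes the receptor of annexin A1 and was named after its values were seen, was at 1.96, 3.14 and 3.97 CPM with vehicle and 4.25, 15.9 and 3.59 CPM with AG636. The groups overlapped, and 1 library, AG636 replicate 2, was far above the others.

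Glucocorticoid receptor and target genes, a list of 12 that were all tested, had 2 called higher and 0 called lower, beside 10.3% and 11% of all genes. Ddit4, an inhibitor of mTORC1 signalling, was at 10.9, 21.8 and 29.0 CPM with vehicle and at 60.5, 81.0 and 65.9 CPM with AG636 (log2 fold change 1.75, SE 0.29, adjusted p = 0.00521). Tsc22d3, which encodes the leucine zipper protein GILZ, was at 16.2, 19.9 and 23.4 CPM with vehicle and at 35.3, 55.7 and 35.1 CPM with AG636 (1.08, SE 0.23, adjusted p = 0.012). The receptor gene Nr3c1, named after its values were seen, had a log2 fold change of -0.004 (adjusted p = 0.987). The median of the list was 0.70 against 0.03 over all genes. At an unadjusted p under 0.05, where no share of all genes was counted, 6 were higher and 2 lower. The lower ones, named after their values were seen, were Klf9 (-1.29, SE 0.56) and Nfkbia (-0.56, SE 0.20). DESeq2 called 4 higher and 1 lower, and limma-voom 3 higher and 0 lower. Without vehicle replicate 3, 5 were called higher, and without vehicle replicate 1 or AG636 replicate 2, 1 was called lower.

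**Figure D5:**
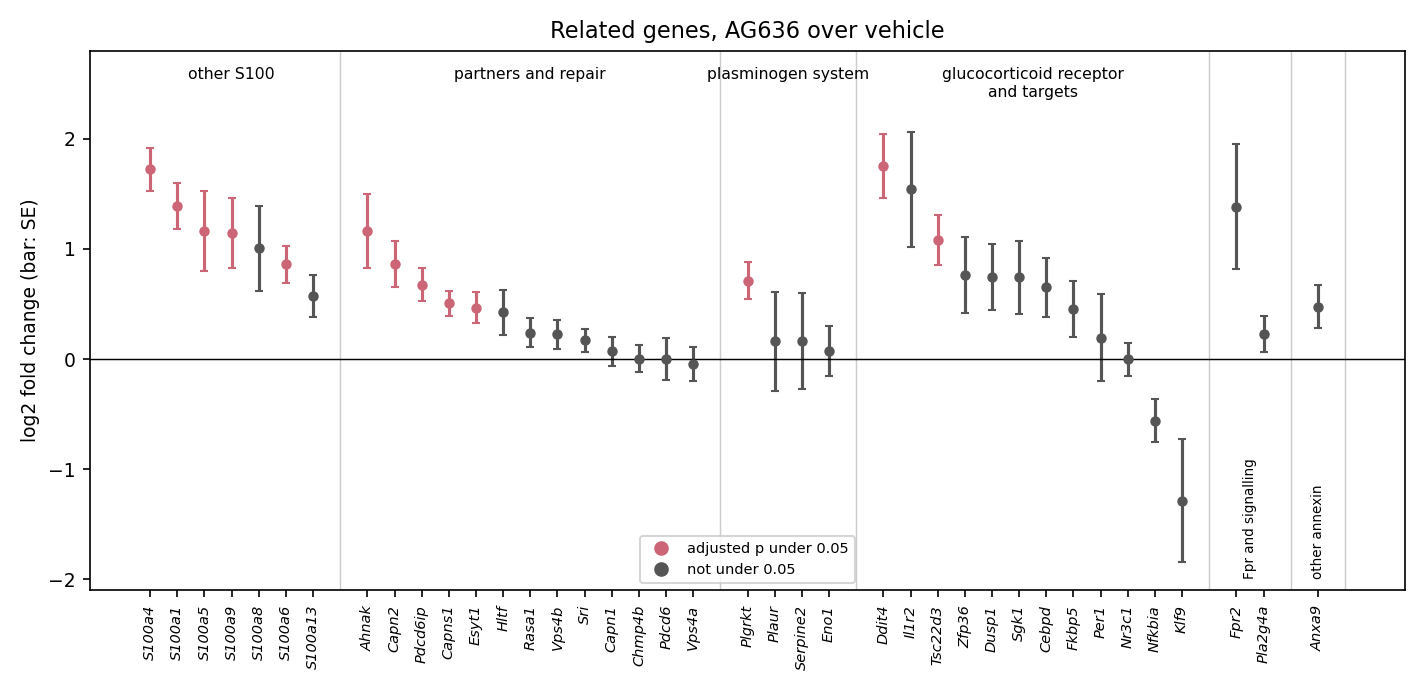
Log2 fold change of AG636 over vehicle with bars of SE for the tested genes of the 6 lists of related genes, red where the adjusted p is under 0.05. All 7 tested S100 genes lie above 0, of which 5 are red, and Ddit4 (1.75) and S100a4 (1.72) are the highest of the red points.

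Genes whose log2 CPM over the 6 samples was most like that of Anxa1 included Mxd1, Zmynd11, F2rl3 and Nabp1, with Pearson's r from 0.990 to 0.992. This r does not measure the size of a difference. The fold was 1.79 for Mxd1, 1.24 for Zmynd11, 1.7 for F2rl3 and 1.33 for Nabp1, against 4.43 for Anxa1. Zmynd11 and Nabp1 were not called. The points share library and treatment group, and the genes were chosen by r, so r describes these 6 libraries only. Mxd1, which encodes a partner of MAX, was at 24.1, 24.7 and 23.4 CPM with vehicle and at 47.8, 41.5 and 40.4 CPM with AG636. Among the members, r with Anxa1 was 0.906 for S100a11, 0.872 for Anxa5, 0.846 for S100a10, 0.831 for Anxa2, 0.814 for Anxa6, 0.777 for Anxa4, 0.348 for Anxa3 and -0.282 for Anxa7.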

How the data were processed

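Per the labels, total RNA of sorted AML cells was made into libraries with a 3′ mRNA kit, which captures the end of each transcript. The authors deposited counts of reads per gene for all 6 samples. The submitters' processing notes name FastQC, cutadapt 1.9.1, HISAT2 2.0.4, featureCounts, Subread 1.5.0-p3 and the mm10 build, while the methods of the study give other versions of cutadapt and Subread. The annotation release, the use of strand, the handling of reads with several hits and molecular identifiers are not given in the sources used here. No sample column was left unused (0 in all). GENCODE vM21 gave a symbol to 54809 of the 54838 identifiers.

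Groups were taken from sample titles. Counts were tested with edgeR 4.0.16 in R 4.3.3: genes were filtered by filterByExpr (minimum count 10, minimum total 15), scaled by TMM and compared between AG636 and vehicle by the quasi-likelihood test over 11092 genes. A gene was called at an adjusted p (Benjamini-Hochberg) under 0.05. Counts at an unadjusted p under 0.05 have no share of all genes beside them and only describe each list. CPM use the scaled library sizes. The SE of a log2 fold change was obtained as its absolute value over the root of F, with a median of 0.20. Log2 CPM for correlations used a prior count of 2. The fit was checked on simulated counts. The chi-square statistic between replicates was 6.67 to 15.9 per degree of freedom, so each sample counted once. P-values measure the spread between mice that each gave 1 library.

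Alternatives were DESeq2 1.42.0, limma-voom (limma 3.58.1), scaling by library size alone or by median-of-ratios factors, a replicate block, a filter of 10 counts in each of the samples or none, thresholds of 0.01 on the adjusted p or 1.5 on the fold change, and leaving out each library in turn. The members, gene lists and tests were chosen with earlier results of these data known. From each list of related genes, at most 4 genes past the threshold in each direction were named by lowest adjusted p, and the 5 genes most like Anxa1 by Pearson's r, of which 1 is not reported here. Promoter windows were read from the RefSeq table, and motifs were searched on both strands.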

Additional observations from a re-analysis of the deposited data

How the results depend on the processing

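The log2 fold changes of Anxa1, Anxa2, Anxa3, Anxa4, Anxa5, Anxa6, S100a10 and S100a11 stayed above 0 under all 14 alternative settings. Since these samples chose the list, this says nothing independent about it. Anxa7 changed sign, from -0.063 to 0.027 with library size alone and 0.081 without both vehicle replicate 1 and AG636 replicate 2. Without 1 library in turn it ranged from -0.136 to 0.006. Anxa3 passed the threshold with no filter (0.46, with an SE of 0.17 in place of 0.44) and without both of these libraries (0.53). With no filter the SE of S100a9 also fell, from 0.317 to 0.13, while that of Anxa7 rose from 0.14 to 0.173. The cause of these changes was not tested. Library size alone moved the median log2 fold change of all genes from 0.029 to 0.119, and the other settings gave 0.015 to 0.075.

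At an adjusted p under 0.01, the genes called higher and lower numbered 231 and 325 in place of 1146 and 1222, with 2 members, 3 other S100 genes, 0 partner and repair genes, 0 plasminogen genes and 1 glucocorticoid gene called higher. Leaving out 1 library gave 399 to 1074 genes higher and 452 to 1298 lower, lowest without AG636 replicate 3. It gave 4 to 6 members, 3 to 5 other S100 genes, 0 to 5 partner and repair genes, 0 to 1 plasminogen genes and 2 to 5 glucocorticoid genes higher, and 0 to 1 glucocorticoid genes lower. A fold change of at least 1.5 left 3 partner and repair genes, as did leaving out both libraries named above, which also gave 2 glucocorticoid genes lower. With no filter 1 formyl peptide receptor list gene was higher, and 6 glucocorticoid genes were higher and 2 lower. DESeq2 called 4 glucocorticoid genes higher and 1 lower.

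Equal replicate numbers name different mice. Their deviations from the group means correlated at -0.057, -0.178 and 0.224, beside -0.38 to 0.364 for unequal numbers. These values gave no sign of pairing. With 3 mice per group they cannot exclude a batch shared by equal numbers. With the replicate number as a block, 3 other S100 genes were called higher and Anxa6 lost its call (0.581). Anxa11 had too few counts to be tested. S100a5 had no value with at least 10 counts in every sample.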
